A study of Mus musculus with 2 samples.

Results

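The 9 genes described here stand for the interferon response and for MHC class I: *Isg15*, *Ifitm3*, *Ifih1*, *Ddx58*, *Bst2*, *B2m*, *H2-K1*, *H2-D1* and *Ifi202b*. They were taken by symbol from the 27998 genes of the deposited tables, and all 9 were found. The question was whether the loss of *Mettl3*, the enzyme that writes the m6A mark on RNA, came with higher levels of genes of innate RNA sensing in any of the epithelial cell types. Back skin epithelium of C57BL/6 embryos at embryonic day 17 had been dissociated, sorted for YFP and measured by droplet-based 3′ sequencing of single cells, in 1 *Mettl3* cKO library and 1 Ctrl library. In the paper's sort, cells with lineage markers, CD45 (the product of *Ptprc*) among them, were left out. The YFP-positive cells were further gated on surface integrins to enrich for progenitors, so the suprabasal cells measured here had passed that gate too. *Mettl3* was fl/fl in the cKO and fl/+ in the Ctrl, so that the Ctrl cells too could lose an allele, and the embryos of both groups carried K14Cre together with Rosa16-YFP fl/+ (so spelled in the sample labels, Rosa26-YFP in the paper). The K14 promoter drives Cre in the progenitors of the skin epithelium, and YFP marks the cells in which Cre has acted. Cells with at least 1800 genes were kept, 3577 in the cKO and 4447 in the Ctrl library, with 34116275 and 43874554 unique molecular identifiers (UMIs) in all and a median of 8581 and 8941 UMIs per cell. With 1 library per condition the spread between embryos could not be measured, so no p-value is given, and every interval below is a 95% interval that covers counting error only.

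Cells sense viral RNA with helicases that start the production of interferon, and secreted interferon acts through its receptors to switch on a large set of antiviral genes. The same signals raise MHC class I, a heavy chain paired with the B2m light chain that shows peptides from inside the cell to T cells. In other cell types RNA that lacks m6A has been described as a possible trigger of these sensors, and skin epithelium is a tissue that meets microbes at birth and can make interferon itself.

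Interferon is known to act through short promoter elements, and the sequences below show where the letters of such an element were found in these genes. Each comes from the RefSeq promoter of the gene (250 bases before to 50 bases after its start, build GRCm38.p6), read 5′ to 3′ on the strand of the gene. The core of the interferon-stimulated response element, which is GAAA, any bases NN and GAAA in a row, or its reverse complement (TTTC, NN, TTTC), stands in capitals in the first 6, and the gamma-activated sequence TTCNNNGAA in the last.
*Isg15*, chr4:156200871-156200900, minus strand: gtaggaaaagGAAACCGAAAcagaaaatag
*Ifitm3*, chr7:141010706-141010735, minus strand: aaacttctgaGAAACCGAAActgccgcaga
*Ifih1*, chr2:62646206-62646233, minus strand: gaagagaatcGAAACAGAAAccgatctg
*Ddx58*, chr4:40239804-40239833, minus strand: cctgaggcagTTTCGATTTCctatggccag
*Bst2*, chr8:71537577-71537606, minus strand: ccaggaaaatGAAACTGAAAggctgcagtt
*B2m*, chr2:122147538-122147567, plus strand: ataagaacatGAAACTGAAAatgggaaagt
*Ifi202b*, chr1:173982974-173983002, minus strand: ctgtcatgatTTCTCAGAAtaactactga
On either strand the response element core was present for 6 of the 9 genes, and for 3.99% of all 27025 genes with a promoter in the table. *Isg15* held 3 overlapping matches, and *Ifitm3* and *Bst2* held 2 each. The gamma-activated sequence was present for *Ifitm3*, *Bst2* and *Ifi202b*, and for 9.55% of all genes. For *Ifitm3* and for *Bst2* a match of one motif overlapped a match of the other. Neither motif was found in these windows for *H2-K1* and *H2-D1*. A match describes the letters of the window and is not a binding site shown by these data.

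*Mettl3* itself, read from its 3′ end and therefore not from the deleted exon, had 211 UMIs (6.18 CPM, the UMIs per 1000000 UMIs of the same cells) in cKO cells and 557 (12.7 CPM) in Ctrl cells, a ratio of 0.487 (0.414 to 0.572) that does not check the deletion. The Y-linked gene *Ddx3y* had 1520 UMIs in the cKO and 0 in the Ctrl library, and *Xist* had 1 and 89523, so that sex and genotype cannot be told apart in any comparison below. Of the kept cell barcodes, 16 occurred in both libraries. Cells were sorted into 7 gates by marker genes: basal keratinocytes (*Krt5*, *Krt14*) that were resting, in S phase or in G2/M phase, suprabasal keratinocytes (*Krt1*, *Krt10*), the follicle tip (*Shh*, *Dkk4*, *Fgf20*), follicle progenitors (*Sox9*, *Lhx2*) and the upper follicle (*Krt79*). The gates held between 303 and 783 cKO cells and between 262 and 1089 Ctrl cells. When the cells of both libraries were clustered, most basal cells fell into clusters of 1 library: 1 cluster held 1234 cKO and 18 Ctrl cells, and 3 others held 79 to 134 cKO and 709 to 827 Ctrl cells. The basal values below therefore compare cells that clustering kept apart. The same basal cut was applied to both libraries. Over all kept cells *Krt14* was at 5336 CPM in cKO and 7771 CPM in Ctrl, and *Krt5* at 2713 and 4093 CPM. The part of this difference in the basal values was not tested. Because *Krt10* and *Sox9* helped to define the gates, their levels follow from the cuts and are no independent check. *Krt10* was at 14215 CPM in cKO and 18868 CPM in Ctrl suprabasal cells and at most 189 CPM in the other 6 gates. *Sox9* was at 346 and 321 CPM in follicle progenitors of the cKO and Ctrl libraries. In the upper follicle *Sox9* was at 292 and 267 CPM. Few cells carried several immune markers, as 1 cKO and 2 Ctrl cells held 3 or more of 12. *Ptprc* had 1 UMI in the cKO and 0 in the Ctrl, but cells with CD45 on their surface had been left out by the sort. The 12 immune markers summed to 12.2 CPM in cKO and 15.6 CPM in Ctrl cells. Among them *Cd74* had 251 and 380 UMIs and *H2-Ab1* 131 and 257. The 7 mesenchymal markers summed to 790 CPM in cKO and 940 CPM in Ctrl cells and the 10 markers of neural crest derivatives to 10.5 and 25.3 CPM, and their part in the results was not tested.

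Over all kept cells, 3 of the 9 genes were at least 1.5-fold higher in the cKO library and none was at least 1.5-fold lower. *Bst2*, *Isg15* and *H2-K1* passed this fold, and all 3 are genes with few UMIs. When every cell was thinned to 5000 UMIs none of the 9 passed it, with log2 ratios of 0.53, 0.48 and 0.52 for these 3. Among the 13184 genes that reached 20 UMIs in the sum of the libraries, 7.68% were at least 1.5-fold higher and 4.51% at least 1.5-fold lower. The median log2 ratio of the 9 genes was 0.31, against 0.03 for all measured genes. Because the 9 genes were chosen with earlier results of these data known, their comparison with all genes is a description only. *Ifitm3*, *H2-D1* and *B2m* were higher by a smaller fold with intervals above 1, and the intervals of *Ddx58*, *Ifih1* and *Ifi202b* included 1. Across the 7 gates, 50 of the 63 pairs of gene and gate had the 20 UMIs needed for a ratio. Of these, 9 were at least 1.5-fold higher and 3 at least 1.5-fold lower in the cKO. Among all measured genes of a gate, 7.01% to 12% were higher and 4.1% to 6.7% lower by this fold. Of the 50 pairs, 18 had an interval above 1 and 3 an interval below it. Intervals were not counted over all genes, and the same genes recur across gates.

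**Figure D1:**
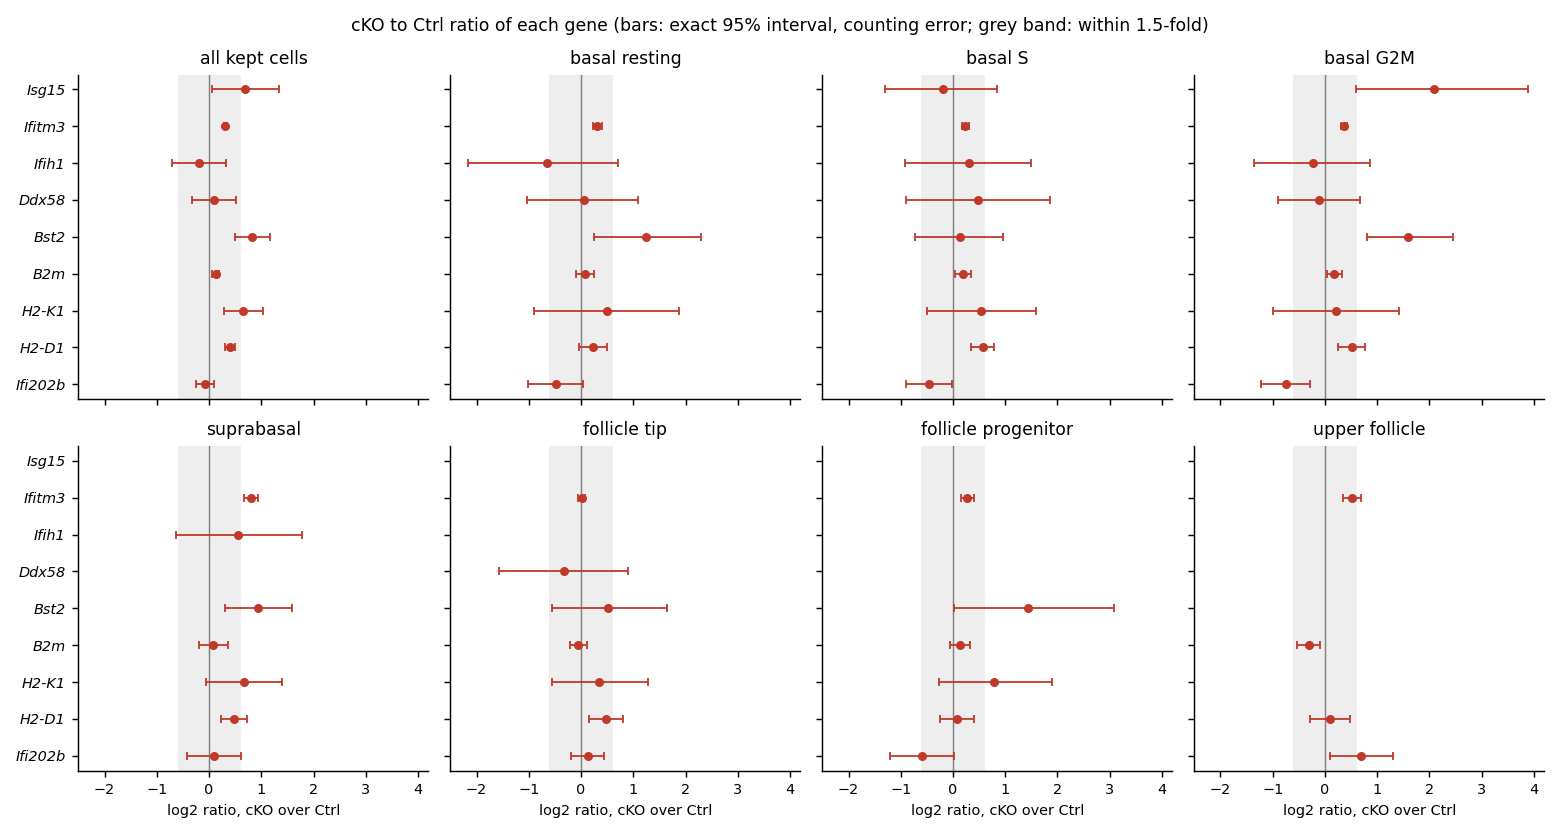
Ratio of cKO to Ctrl for each of the 9 genes on a log2 scale, over all kept cells and in each gate, with exact 95% intervals for counting error and a grey band for less than 1.5-fold. Points are missing where fewer than 20 UMIs were counted. Over all kept cells *Bst2*, *Isg15* and *H2-K1* lie to the right of the band and none lies to its left.

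Neither RNA sensor had an interval that left out equal levels in the cKO and Ctrl libraries. *Ddx58* (chr4:40203773-40239828), which encodes the RNA helicase RIG-I, had 88 UMIs (2.58 CPM, 2.07 to 3.18) in cKO cells and 106 UMIs (2.42 CPM, 1.98 to 2.92) in Ctrl cells, a ratio of 1.07 (0.795 to 1.43). *Ifih1* (chr2:62595798-62646255), which encodes MDA5, the sensor of long double-stranded RNA, had 54 UMIs (1.58 CPM) and 79 UMIs (1.80 CPM), a ratio of 0.879 (0.610 to 1.26). For both sensors the upper bound lay below 1.5-fold over all cells. In single gates the counts were too small for such a statement. *Ifih1* in resting basal cells had 7 cKO and 17 Ctrl UMIs, which put its ratio at 0.640 with an interval from 0.224 to 1.62. The highest level of *Ddx58* was in the follicle tip of both libraries, at 4.11 CPM in cKO and 5.14 CPM in Ctrl cells. Relative to basal cells it was 2.18-fold (1.13 to 3.91) in Ctrl and 1.64-fold (0.795 to 3.13) in cKO, where the interval includes 1. None of the neighbouring levels in the order of the gates had separate intervals for *Ddx58* or *Ifih1*.

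The wider machinery of RNA and DNA sensing was measured alongside. Of the 39 such genes that the files list, 26 had at least 20 UMIs, of which 1 was at least 1.5-fold higher in the cKO, 3 were at least 1.5-fold lower, beside 7.68% and 4.51% of all measured genes, and the median log2 ratio was -0.02. The lower genes were *Irf5* (18 and 36 UMIs, ratio 0.344 to 1.16), *Irf7* (7 and 16, 0.196 to 1.45) and *Oas1c* (9 and 20, 0.232 to 1.33), named after their values were seen, and all 3 intervals include 1. The higher gene was *Rnf135*, a ubiquitin ligase that activates RIG-I, with 67 and 50 UMIs and a ratio of 1.72 (1.18 to 2.54). *Ticam1*, the adaptor of Toll-like receptor 3, followed with 6.62 CPM in cKO and 4.49 CPM in Ctrl cells (1.48, 1.21 to 1.80), then *Trim25*, another ubiquitin ligase of this pathway, with a ratio of 1.32 (0.968 to 1.79). At the other end were *Rnaseh2b*, a subunit of the enzyme that removes RNA from DNA, with 46.9 CPM in cKO and 64.4 CPM in Ctrl cells (0.729, 0.685 to 0.775), the kinase gene *Ripk3* (0.830, 0.705 to 0.975) and the nuclease gene *Samhd1* (0.851, 0.729 to 0.993). The mitochondrial adaptor gene *Mavs*, chosen after its values were seen, had 7.30 CPM in cKO and 5.70 CPM in Ctrl cells (1.28, 1.07 to 1.53). By gate, the median log2 ratio of this list ran from -0.12 in resting basal to 0.24 in suprabasal cells. In suprabasal cells 3 of 19 were higher (*Irf3*, *Eif2ak2*, *Tmem173*) and 0 lower, beside 12% and 5.73% of all genes. In follicle progenitors 0 of 16 were higher and 3 lower, beside 7.04% and 6.33%.

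No interferon of any type was detectable at this depth beyond single molecules. The 21 interferon genes of the table had 3 UMIs together in cKO cells and 3 in Ctrl cells, and only 3 of these genes had any. With 3 UMIs as the most that a count of 0 allows, a gene without a UMI lay below 0.0879 CPM in the cKO and 0.0684 CPM in the Ctrl library. The receptors were present, with *Ifnar2* at 11.9 CPM in cKO and 9.07 CPM in Ctrl cells and *Ifngr2* at 28.6 and 28.2 CPM. Of the 19 measured genes among 31 interferons, receptors and signalling genes, 1 (5.26%) was at least 1.5-fold higher and 0 at least 1.5-fold lower, beside the 7.68% and 4.51% of all measured genes. The higher one was *Irf9*, the DNA-binding part of the complex that activates interferon-stimulated genes, with 156 and 125 UMIs (1.60, 1.26 to 2.05). Next to it stood *Socs1*, an inhibitor of cytokine signalling (1.49, 1.17 to 1.89), and *Stat2*, a partner of *Irf9* (1.34, 1.03 to 1.74). The lowest ratios were those of the kinases *Jak2* (0.810, 0.657 to 0.995) and *Jak1* (0.868, 0.818 to 0.920) and the phosphatase *Ptpn2* (0.871, 0.814 to 0.931). The median log2 ratio of this list was 0.07, and by gate it ran from -0.08 in S-phase to 0.15 in G2/M-phase basal cells. In suprabasal cells 4 of 17 were higher (*Jak2*, *Irf9*, *Socs1*, *Socs3*) and 1 lower (*Il10rb*), beside 12% and 5.73% of all genes. The median there was 0.01, against 0.04 for all genes.

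*Isg15* (chr4:156199424-156200818), a ubiquitin-like protein that is among the first products of an interferon response, was rare. It had 49 UMIs in 40 cKO cells and 39 UMIs in 23 Ctrl cells, which is 1.44 CPM (1.06 to 1.90) and 0.889 CPM (0.632 to 1.22) and a ratio of 1.62 (1.04 to 2.53). A single Ctrl cell held 15 of the 39 UMIs. No cKO cell held more than 3. Without that Ctrl cell, an alternative chosen after the data were seen, the Ctrl library had 24 UMIs (0.547 CPM) and the ratio was 2.62 (1.58 to 4.47). The cell had 18160 UMIs, lay in the S-phase basal gate and carried 172 *Krt14* and no *Ptprc* UMIs. It also held all 6 *Ifit1* UMIs of the Ctrl library, both of its 2 *Ifi44* UMIs, 3 of its 7 *Usp18* UMIs, 31 *Ifitm3* UMIs and 5 *Bst2* UMIs. Its doublet score ranked 49 among the 4447 Ctrl cells, and it was left out when the 4% of cells with the highest scores were removed. By gate, *Isg15* had 17 cKO and 5 Ctrl UMIs in G2/M-phase basal cells (4.25, 1.51 to 14.7), 7 and 1 in resting basal cells, and 13 and 23 in S-phase basal cells, where the ratio was 0.871 with that cell and 2.50 (0.960 to 6.95) without it. In the other gates it had at most 8 UMIs in either library. The free RNA of droplets with 10 to 100 UMIs held *Isg15* at 1.88 CPM in the cKO library (7 UMIs, 0.755 to 3.87). In the Ctrl library it was at 1.56 CPM (8 UMIs, 0.672 to 3.07). Both intervals include the level over all kept cells of the same library.

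A cell in an antiviral state carries many such transcripts at once. Therefore, 18 antiviral genes were counted per cell, a set chosen after their values were seen. In the cKO library 172 cells had 1 of them, 4 cells had 2, and no cell had 3 or more. In the Ctrl library 181 cells had 1, 2 cells had 2, and 2 cells had 3 or more. After every cell had been thinned to 5000 UMIs, 0 of 3511 cKO cells and 3 of 4396 Ctrl cells had 2 or more. Summed over the set, there were 194 UMIs (5.69 CPM) in cKO cells and 228 (5.20 CPM) in Ctrl cells, a ratio of 1.09 (0.899 to 1.33). Without the Ctrl cell described above the ratio was 1.25 (1.02 to 1.53). The largest parts of the sum came from *Cmpk2*, with 63 and 68 UMIs, and *Isg15*. *Ifit2* had 18 UMIs in cKO and 38 in Ctrl cells and *Irf7* had 7 and 16, both at the higher level in Ctrl, while *Mx1* (8 and 5), *Oasl2* (11 and 5) and *Rtp4* (10 and 5) stood at the higher level in the cKO.

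**Figure D2:**
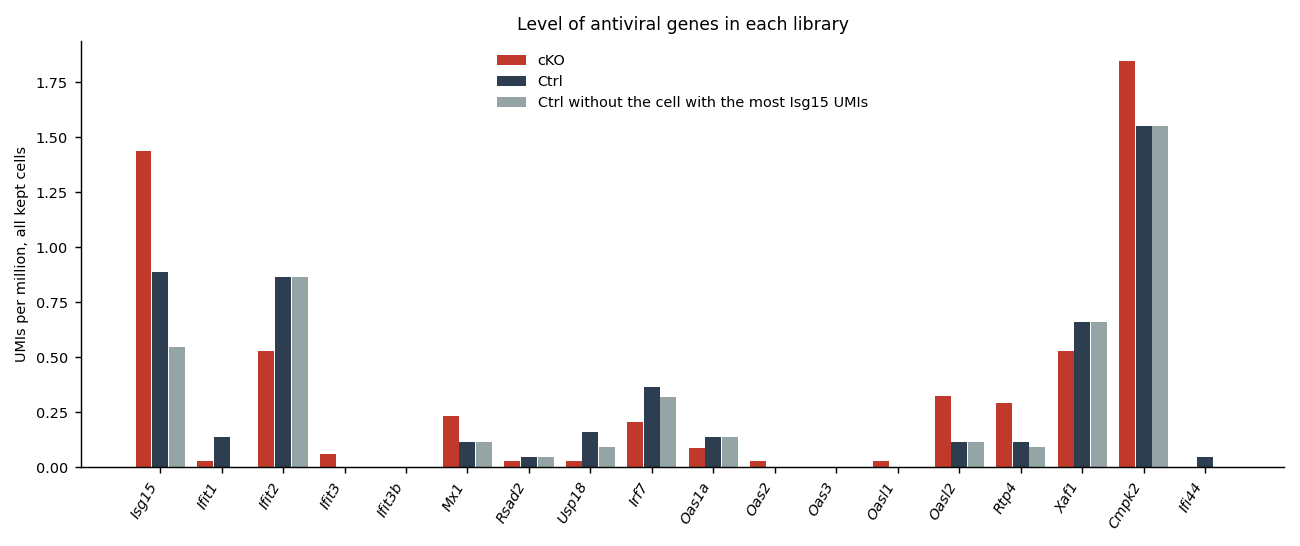
Level of each of the 18 antiviral genes in CPM over all kept cells, in the cKO library, in the Ctrl library and in the Ctrl library without the single cell with the most *Isg15* UMIs. Every gene lies below 2 CPM, *Ifit1* of the Ctrl library comes from that cell alone, and *Ifit2* is higher in Ctrl.

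*Bst2* (chr8:71534255-71537456), whose product tetherin holds enveloped viruses at the cell surface, had the highest ratio of the 9 genes over all cells, as long as the *Isg15*-rich Ctrl cell was kept (without it *Isg15* was at 2.62). It had 188 UMIs (5.51 CPM, 4.75 to 6.36) in cKO cells and 136 UMIs (3.10 CPM, 2.60 to 3.67) in Ctrl cells, a ratio of 1.78 (1.42 to 2.23). It was highest in suprabasal cells of both libraries, at 13.2 CPM in cKO and 6.84 CPM in Ctrl (1.93, 1.24 to 3.02), which is 2.89 and 2.98 times the level of basal cells of the same library. In G2/M-phase basal cells it had 46 and 19 UMIs, or 5.35 CPM in cKO and 1.77 CPM in Ctrl (3.03, 1.74 to 5.47). In resting basal cells it had 23 and 15 UMIs (2.38, 1.19 to 4.91), and in follicle progenitors 16 and 6 (2.71, 1.01 to 8.45). In S-phase basal cells, however, the levels were 3.31 and 3.03 CPM (1.09, 0.603 to 1.95), and in the follicle tip 6.84 and 4.78 CPM with an interval from 0.678 to 3.13. In the upper follicle it had only 6 and 9 UMIs. The free RNA held *Bst2* at 6.44 CPM in the cKO and 3.50 CPM in the Ctrl library (1.84, 0.957 to 3.60), levels near those of the cells.

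*Ifitm3* (chr7:141009586-141010770), a membrane protein that blocks the fusion of viruses with the cell, had the most UMIs of the 9. It had 17035 UMIs (499 CPM, 492 to 507) in cKO cells and 17624 UMIs (402 CPM, 396 to 408) in Ctrl cells, a ratio of 1.24 (1.22 to 1.27). The level was highest in the follicle tip, where the libraries were nearly equal at 1111 CPM in cKO and 1102 CPM in Ctrl (1.01, 0.959 to 1.06). In every other gate the interval of the ratio lay above 1. The ratio was largest in suprabasal cells, with 269 CPM in cKO and 153 CPM in Ctrl (1.75, 1.60 to 1.92), followed by the upper follicle with 235 and 164 CPM (1.43, 1.27 to 1.61), and it was between 1.18 and 1.28 in the 3 basal gates. *Ifitm3* thus stood lower in suprabasal than in basal cells of either library, but by less in the cKO, at 0.502 of the basal level (0.471 to 0.535) against 0.357 in Ctrl (0.333 to 0.383). The free RNA showed a ratio of 1.30 (1.22 to 1.38), at 580 CPM in the cKO and 447 CPM in the Ctrl library, close to the ratio in the cells, and its part in the result was not tested. Of 444 windows of 57 bases, the length of the cDNA read, in the last 500 bases of *Ifitm3*, 43 occur in another gene of the table, including *Ifitm1* and *Ifitm2*. *Ifitm2* itself had a ratio of 1.04 (1.02 to 1.07) and *Ifitm1*, with 11.8 CPM in cKO and 7.54 CPM in Ctrl, one of 1.57 (1.35 to 1.82).

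**Figure D3:**
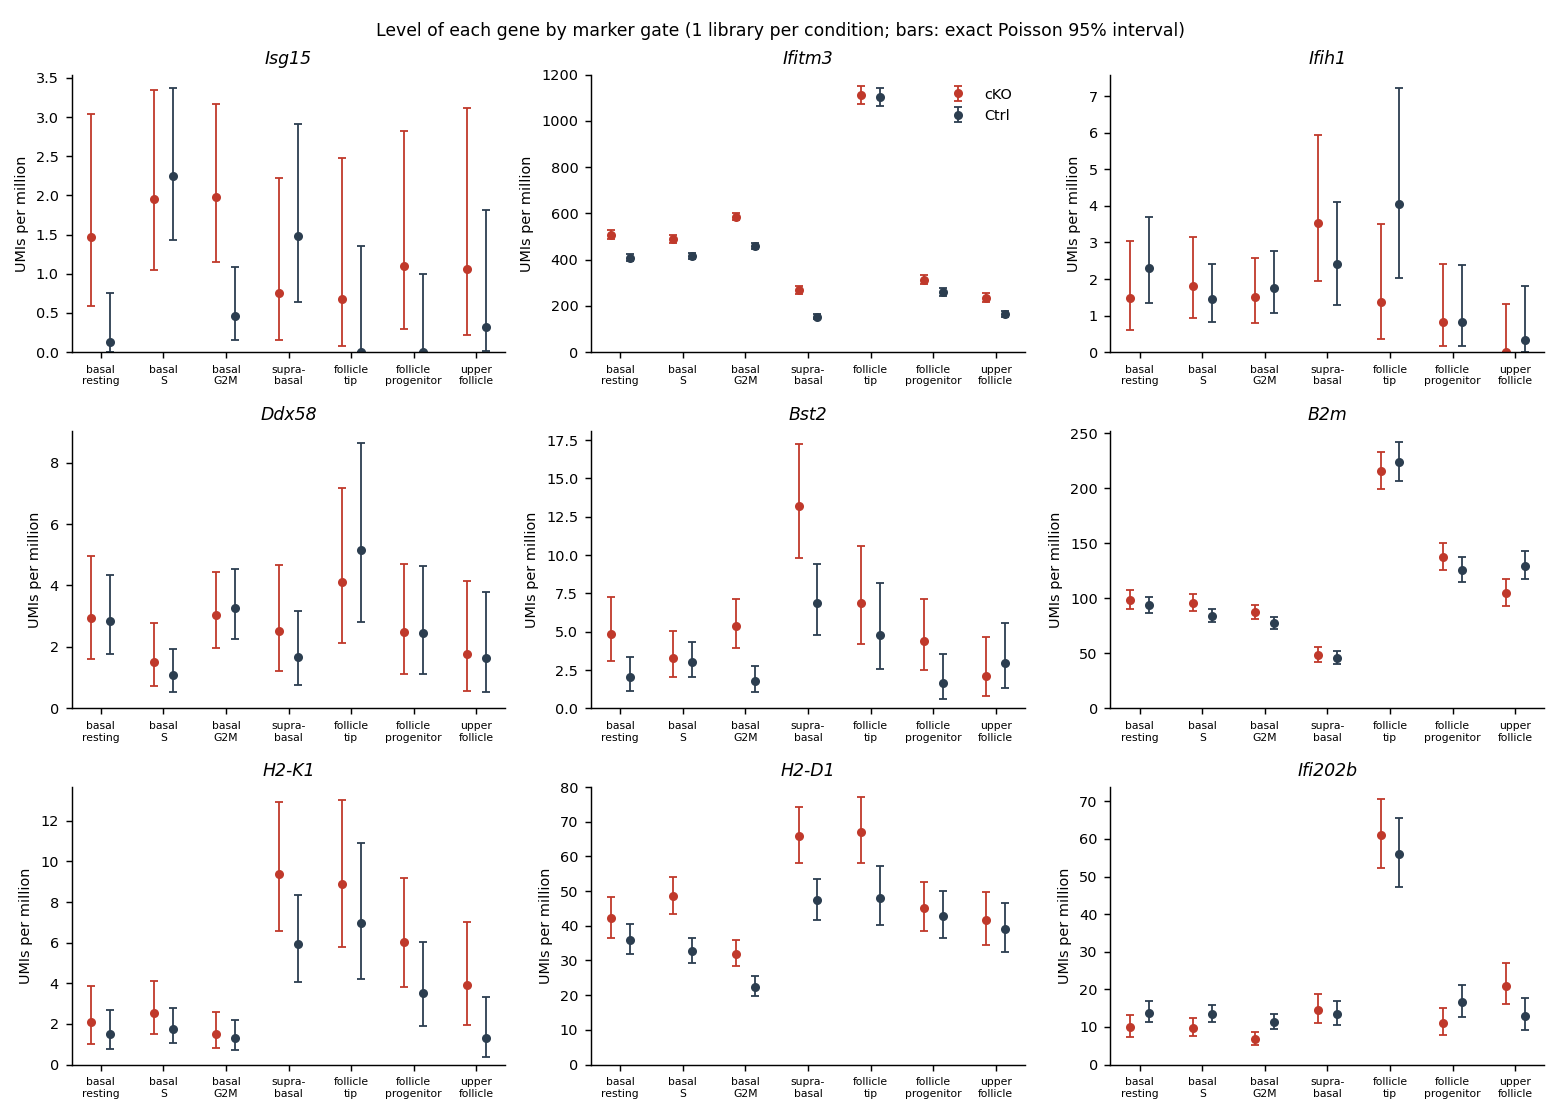
Level of each of the 9 genes in CPM in the 7 gates, with cKO to the left of Ctrl and exact Poisson 95% intervals. *Ifitm3*, *B2m* and *Ifi202b* are highest in the follicle tip of both libraries, where cKO and Ctrl intervals overlap, and *Bst2* is highest in suprabasal cells.

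Over all cells the intervals of the 3 MHC class I genes lay above 1, with ratios between 1.09 and 1.57. *B2m* (chr2:122147686-122153083), the light chain, had 104 CPM (101 to 108) in cKO and 95.8 CPM (92.9 to 98.7) in Ctrl cells, a ratio of 1.09 (1.04 to 1.14). *H2-D1* (chr17:35262730-35267499), a classical heavy chain, had 1571 UMIs (46.0 CPM) and 1530 UMIs (34.9 CPM), a ratio of 1.32 (1.23 to 1.42). *H2-K1* (chr17:33996017-34000347), the other classical heavy chain counted, had 138 UMIs (4.04 CPM) and 113 UMIs (2.58 CPM), a ratio of 1.57 (1.22 to 2.03). By gate, *H2-D1* was higher in S-phase basal cells at 48.5 CPM in cKO and 32.7 CPM in Ctrl (1.48, 1.27 to 1.73), in G2/M-phase basal cells at 32.0 and 22.4 CPM (1.43, 1.20 to 1.70), in suprabasal cells (1.39, 1.17 to 1.66) and in the follicle tip (1.39, 1.11 to 1.75). Its intervals included 1 in resting basal cells (0.971 to 1.41), follicle progenitors (0.843 to 1.32) and the upper follicle (0.820 to 1.39). *H2-K1* passed 1.5-fold in suprabasal cells (37 and 32 UMIs, 1.58, 0.960 to 2.63) and in follicle progenitors (22 and 13 UMIs, 1.72, 0.829 to 3.72), both with intervals that include 1. *B2m* was higher in the S-phase (1.14, 1.03 to 1.27) and G2/M-phase (1.13, 1.02 to 1.25) basal gates and lower in the upper follicle, with 105 CPM in cKO and 130 CPM in Ctrl (0.806, 0.691 to 0.940). Of the windows at the 3′ end, 5.90% of those of *H2-K1* and 4.73% of those of *H2-D1* occur in another gene. For *H2-K1* these are *H2-D1* and several H2-Q and H2-T genes, and the effect of the shared windows on the counts of the class I genes was not tested.

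The light and heavy chains did not follow the same order across gates. In the follicle tip *B2m* was at 216 CPM in cKO and 224 CPM in Ctrl, 2.32 and 2.66 times the basal level, and in suprabasal cells at 48.4 and 45.8 CPM, 0.521 (0.446 to 0.604) and 0.545 (0.476 to 0.622) of it. *H2-K1* and *H2-D1* instead were above the basal level in both gates. In suprabasal cells *H2-K1* was 4.68 (2.91 to 7.51) and 3.90 (2.39 to 6.31) times its basal level, and *H2-D1* 1.65 (1.43 to 1.90) and 1.60 (1.38 to 1.84) times, in cKO and in Ctrl. Suprabasal cells of both libraries thus had a higher level of heavy chain and a lower level of light chain transcripts than basal cells.

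The order of the gates was compared between the 2 libraries. In the cKO the level of *Ifitm3* was highest to lowest in the order follicle tip, G2/M-phase, resting and S-phase basal, follicle progenitor, suprabasal and upper follicle. In Ctrl the resting and S-phase basal gates and the last 2 gates changed places. Of the 6 pairs of neighbours in this order, 4 had separate intervals in either library. *B2m* ran from the follicle tip to the suprabasal cells, with 3 of 6 neighbours apart. *H2-D1* was highest in the follicle tip and lowest in G2/M-phase basal cells of both libraries, at 67.1 and 32.0 CPM in cKO and 48.1 and 22.4 CPM in Ctrl, but only 1 of 6 neighbours was apart, and S-phase basal cells stood the third in cKO and next to last in Ctrl. *Ifi202b* had the same highest and lowest gates, again with 1 of 6 neighbours apart, and the upper follicle stood next to the top in cKO and next to last in Ctrl. For *Isg15*, *Ifih1*, *Ddx58*, *Bst2* and *H2-K1*, none of the 6 pairs had separate intervals.

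**Figure D4:**
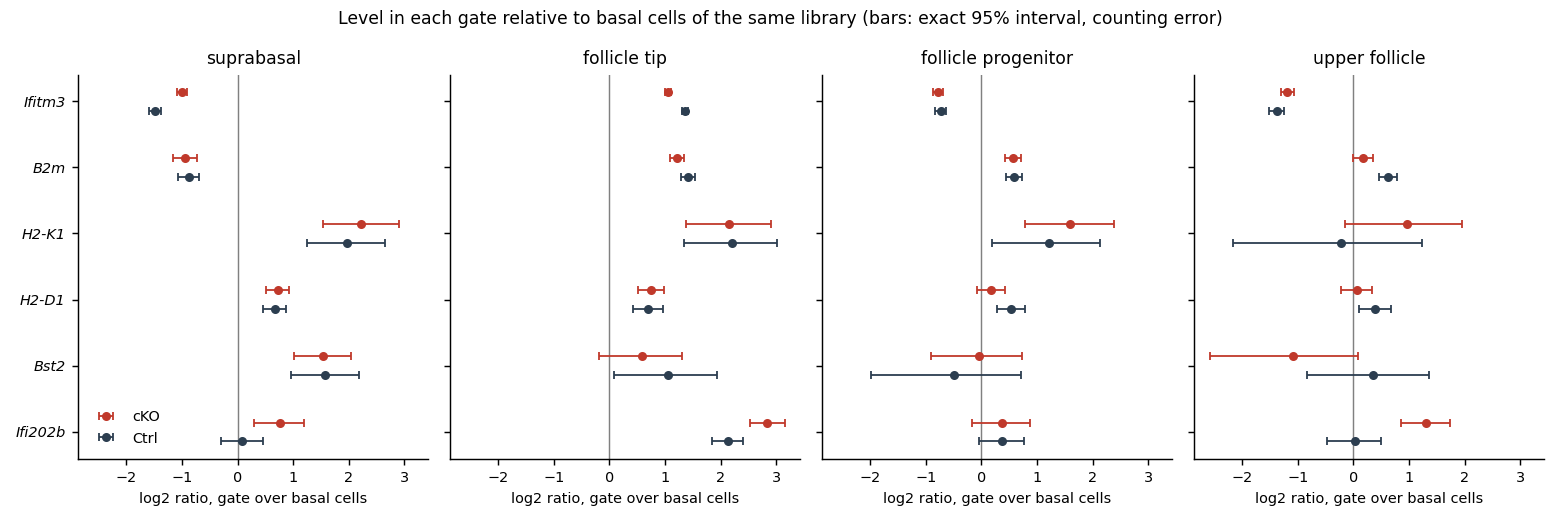
Level of 6 of the genes in each gate relative to all basal cells of the same library on a log2 scale, cKO above Ctrl, with exact 95% intervals for counting error. *B2m* lies left of 0 and *H2-K1*, *H2-D1* and *Bst2* right of 0 in suprabasal cells of both libraries, and in the follicle tip the intervals of all 6 genes lie above 0 except that of *Bst2* in the cKO.

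Of the 36 listed genes of MHC class I and antigen processing, 27 were measured, of which 2 (7.41%) were at least 1.5-fold higher and 0 at least 1.5-fold lower, beside the 7.68% and 4.51% of all measured genes, with a median log2 ratio of 0.09. The second gene besides *H2-K1* was *Tap2*, a peptide transporter subunit, with 41 and 35 UMIs, which fell short of 1.5-fold under each other scaling tried. After *H2-K1* and *H2-D1* the highest ratio among genes with at least 100 UMIs was that of *H2-Ke6* (1.28, 1.18 to 1.39), which lies in the MHC region but encodes a metabolic enzyme. The lowest were *Rfxap* (0.777, 0.724 to 0.834), part of a factor that binds MHC promoters, *Psme2* (0.828, 0.786 to 0.871), a proteasome activator subunit, and the lipid-presenting molecule *Cd1d1* (0.853, 0.738 to 0.985). *Nlrc5*, the transactivator of class I genes, had 0 UMIs in either library. Of the 3 immunoproteasome genes, named after their values were seen, *Psmb10* was higher with 524 UMIs in cKO and 534 in Ctrl cells (1.26, 1.12 to 1.43), and *Psmb8* (0.879, 0.576 to 1.33) and *Psmb9* (1.25, 0.742 to 2.09) had intervals that include 1.

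*Ifi202b* (chr1:173962568-173982744) encodes a DNA-binding protein of the mouse Ifi200 family that inhibits the sensor Aim2. Over all cells it had 509 UMIs (14.9 CPM, 13.7 to 16.3) in cKO and 691 UMIs (15.7 CPM, 14.6 to 17.0) in Ctrl, a ratio of 0.947 (0.843 to 1.06). The follicle tip stood apart from every other gate, at 60.9 CPM in cKO and 55.9 CPM in Ctrl, 7.16 (5.77 to 8.89) and 4.39 (3.61 to 5.32) times the basal level. The tip levels themselves were close (1.09, 0.873 to 1.36). In all basal cells it was lower in the cKO, with 170 UMIs (8.51 CPM) against 361 UMIs (12.7 CPM) in Ctrl (0.668, 0.554 to 0.804). The ratio was 0.716 (0.496 to 1.02) in resting, 0.731 (0.535 to 0.989) in S-phase and 0.595 (0.427 to 0.819) in G2/M-phase basal cells. Among cells with at least 2500 genes the log2 ratio was -1.09 in resting and -1.18 in S-phase basal cells, against -0.48 and -0.45 with 1800 genes. It was 0.666 (0.436 to 1.01) in follicle progenitors. In the upper follicle it was higher in the cKO, at 21.0 CPM against 13.0 CPM in Ctrl (1.61, 1.06 to 2.47). The free RNA held it at 21.2 CPM in the cKO and 22.6 CPM in the Ctrl library, above the basal cells and below the tip. Of 12 genes of its family in the table only 3 had at least 20 UMIs, *Ifi202b*, *Mndal* (11 and 11 UMIs) and *Aim2*. *Aim2*, the inflammasome sensor of DNA, had 73 and 59 UMIs (1.59, 1.11 to 2.28).

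The count of the 9 genes past 1.5-fold has to be read beside that of all measured genes of the same gate. It is a description only, as the 9 were chosen with earlier results of these data known. In resting basal cells 1 of 8 measured genes was higher (*Bst2*) and 1 lower (*Ifih1*), where 10.2% of all genes were higher and 5.51% lower. In S-phase basal cells 0 of 9 passed in either direction, beside 8.83% higher and 5.23% lower. In G2/M-phase basal cells 2 of 9 were higher (*Isg15*, *Bst2*) and 1 lower (*Ifi202b*), beside 9.75% and 4.1%. In suprabasal cells 3 of 7 were higher (*Ifitm3*, *Bst2*, *H2-K1*) and 0 lower, beside 12% and 5.73%, and the median log2 ratio of the measured genes was 0.56 against 0.04 for all genes. In the follicle tip 0 of 7 passed, beside 9.4% and 6.7%. In follicle progenitors 2 of 6 were higher (*Bst2*, *H2-K1*) and 1 lower (*Ifi202b*), beside 7.04% and 6.33%. The lower one was no longer past the fold under any of the 3 other scalings. In the upper follicle 1 of 4 was higher (*Ifi202b*) and 0 lower, beside 7.01% and 6.6%. A gate with 9 or fewer measured genes gives a share that moves by over 10 percentage points with each gene.

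Among interferon-stimulated genes as a wider list, 46 of the 83 in the table were measured over all cells. Of these 8 (17.4%) were at least 1.5-fold higher and 5 (10.9%) at least 1.5-fold lower, beside the 7.68% and 4.51% of all measured genes, and the median log2 ratio was 0.08. The list includes 6 of the 9 genes. Without them 6 of 40 were higher and 5 were lower, with a median log2 ratio of -0.002. The highest with at least 100 UMIs after *Bst2* were *Ly6e*, a surface protein, with 31.3 CPM in cKO and 18.5 CPM in Ctrl cells (1.69, 1.54 to 1.86), and *Ifitm1*. The lowest were the lectin gene *Lgals9* with 8.44 and 13.5 CPM (0.625, 0.541 to 0.720), *Tor3a* with 11.0 and 17.1 CPM (0.642, 0.566 to 0.728) and *Ifi35* (0.762, 0.661 to 0.878). Of the 5 lower genes, *Ifit2*, *Irf7* and *Phf11d* (4 and 22 UMIs) had under 100 UMIs. Of the 8 higher genes, *Isg15*, *Trim34a* (19 and 13 UMIs) and *Slfn8* (28 and 19) did too. In suprabasal cells 8 of 23 were higher and 1 (*Tor3a*) lower, beside 12% and 5.73% of all genes, and without the 9 genes it was 6 and 1 of 19. The median log2 ratio of these 19 was 0.10, against 0.04 for all genes. Of 25 measured innate and inflammatory genes outside the interferon response, 2 (8%) were higher and 5 (20%) lower. The chemokine *Ccl20* (3.06, 2.03 to 4.72) and the alarmin subunit *S100a9*, with 16.5 CPM in cKO and 6.50 CPM in Ctrl cells (2.54, 2.20 to 2.93), were higher, followed by the NF-kB inhibitor *Tnfaip3* (1.39, 1.13 to 1.71). The chemokines *Cxcl1*, with 65 UMIs in cKO and 339 in Ctrl cells (0.247, 0.186 to 0.322), and *Cxcl14*, with 37838 and 75501 UMIs (0.645, 0.637 to 0.653), and the adhesion gene *Icam1* (0.763, 0.698 to 0.834) stood at the low end. The other genes past 1.5-fold were *Tslp* (7 and 27 UMIs), *Cxcl2* (17 and 43) and *Krt6a* (9 and 26).

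**Figure D5:**
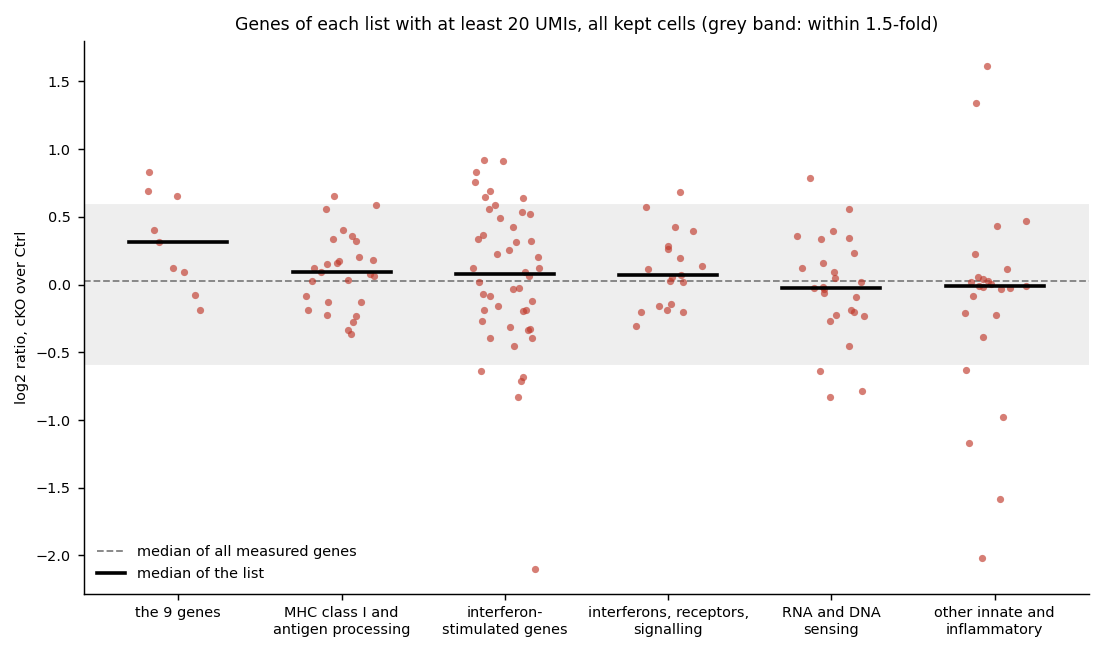
Log2 ratio of cKO to Ctrl over all kept cells for each gene with at least 20 UMIs in 6 lists, with the median of each list as a black bar, that of all measured genes (0.03) as a dashed line and less than 1.5-fold in grey. The median of the 9 genes is 0.31 and those of the other lists lie between -0.02 and 0.09, with genes on both sides of the band among the interferon-stimulated genes. The 9 genes were chosen with earlier results of these data known, and the sensing, interferon-stimulated and MHC lists include some of them.

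The pattern of each gene was compared over 14 sums, of 7 gates in 2 libraries, with the 10184 genes of at least 200 UMIs. The 3 genes most like *Ifitm3* were *Il2rg* (Pearson r of log2(CPM + 1) 0.96), *Kremen2* (0.95) and *Sema6d* (0.94), and those most like *B2m* were *Ephb4* (0.98), *Fam13a* (0.97) and *Mmd* (0.97). *Ifi202b* was most like *2700097O09Rik* (0.92), *Gadd45g* (0.91) and *Cyb5a* (0.91). *H2-K1* was most like *Elovl7* (0.93), *Calml3* (0.92) and *Mid2* (0.89). *H2-D1* was most like *2010107G23Rik* (0.95), *Adrm1* (0.91) and *Ctnnbip1* (0.88), and *Bst2* like *Vti1b* (0.89), *Pop1* (0.86) and *Hdhd3* (0.86). The points share libraries, so these values are descriptions, and none of the 18 names belongs to the lists of interferon or MHC genes used here.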

How the data were processed

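The deposited values are whole-number UMI counts for every gene in every barcode. The authors obtained them from 3′ libraries with Cell Ranger on mm10 (version 2.0 in the submitters' notes, a later version in the paper's methods). All barcodes are listed, before any cell filter, and no normalization had been applied. The annotation release is not given in the sources used here, nor is the number of embryos per library. The members and lists were chosen with earlier results of these data known.

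Barcodes with at least 1800 genes were kept. A cell was assigned, the later rule overriding, as basal (20 or more *Krt5* and *Krt14* UMIs per 10000; S phase from 10 and G2/M phase from 20 UMIs per 10000 of 12 markers each), follicle progenitor (3 *Sox9* and *Lhx2* UMIs), upper follicle (2 *Krt79* UMIs), follicle tip (2 UMIs of *Shh*, *Dkk4* and *Fgf20*) or suprabasal (25 *Krt1* and *Krt10* UMIs per 10000), after cells with 3 neural crest, 4 mesenchymal or 3 Merkel markers had been set aside. These cuts were set after the marker levels had been seen. Within 1.5-fold of the basal cut lay 665 cKO and 377 Ctrl cells, and of the suprabasal cut 76 and 74. UMIs were summed per gate and library and divided by the total of the sum (CPM), with exact Poisson intervals and exact conditional binomial intervals for ratios, both at 95% and checked on simulated data. A gene was measured where the libraries summed to 20 or more UMIs. Named genes are all members and, per list, the 3 highest and the 3 lowest by ratio of those that reached 100 UMIs. Free RNA was summed over droplets with 10 to 100 UMIs. Scrublet called 2 cKO and 7 Ctrl doublets, too few to have worked, so an alternative left out the top 4% of scores.

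Alternatives changed the scaling (median of ratios, TMM in edgeR 4.0.16, totals without abundant genes), the cell filter, free RNA, depth, gene minimum and the cell types (pooled Leiden clusters, scanpy 1.11.5, leidenalg 0.10.2). Python 3.11.15, scipy 1.17.1 and matplotlib 3.10.9 were used. RefSeq promoters matched all 9 genes, and gene positions are GENCODE vM21 (GRCm38).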

Additional observations from a re-analysis of the deposited data

Results flagged for a closer look

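For *Ifi202b* and *B2m*, gates differed in direction, with counting intervals on opposite sides of 1. *Ifi202b* had a cKO to Ctrl ratio of 1.61 in the upper follicle, but of 0.731 in S-phase and 0.595 in G2/M-phase basal cells. *B2m* ran the other way, with 0.806 in the upper follicle and 1.14 in S-phase and 1.13 in G2/M-phase basal cells. The difference between the gates was not tested, because each gate of a condition comes from a single library.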

How the results depend on the processing

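Of 15 other settings, 1 chosen after the data were seen (without the Ctrl cell richest in *Isg15*), each value was recomputed under the 11 to 14 that apply to it. Of the 863 ratios of single genes so obtained, 39 had the other sign than the reported ratio, for 21 of 75 ratios, none of which had a counting interval that left out 1. Among ratios past 1.5-fold 1 turned, *Bst2* over follicle progenitors and upper follicle, which was -0.14 on the log2 scale when cells were thinned to 5000 UMIs. Another 16 ratios moved beyond the interval of the reported ratio. The median of the 9 genes stayed between 0.22 and 0.33 over all cells, but in suprabasal cells (0.56) it was 0.29 with 100 UMIs per gene and 0.34 after thinning, and in the follicle tip (0.13) it was -0.05 in Leiden clusters. The medians of 3 wider lists, all near 0, also changed sign under some settings. Scaling moved the median of all genes by 0.03 at most. Removing 5% free RNA changed no count by over 1.5 times. The counts past 1.5-fold are small and moved often, and the cause was not tested.

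Members past 1.5-fold in all cells numbered 0 after thinning. In resting basal cells 2 were higher and 0 lower with 1000 genes per cell or without the split by cycle, 0 were higher with 2500 genes, 0 were lower at up to 10% mitochondrial UMIs, 0 passed either way with 100 UMIs per gene, and 2 were higher with 1 UMI. In S-phase basal cells 2 were lower with 2500 genes, 2 were higher without the 4% of highest doublet scores, with equal weight per cell or without the Ctrl cell, and 1 after thinning. In G2/M-phase basal cells 0 were lower with 1000 genes, and 1 was higher after thinning and 0 with 100 UMIs. In suprabasal cells 1 was higher with 100 UMIs and 1 lower with 1 UMI. In the follicle tip 2 were higher with 2500 genes, 1 after thinning, 2 were higher and 1 lower in Leiden clusters, and 2 were lower with 1 UMI. In follicle progenitors 0 were lower with median of ratios, TMM, totals without abundant genes, 1000 genes, the doublet or the mitochondrial limit, and 1 was higher with 2500 genes or equal weight and 0 after thinning or with 100 UMIs. In the upper follicle 0 were higher with 2500 genes or 100 UMIs, 2 without high doublet scores and 4 with 1 UMI.

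Of the sensors, 2 were higher with 1000 genes and 0 after thinning, 0 were lower with 2500 genes or 100 UMIs, 1 without high doublet scores or with equal weight, and 4 were higher and 8 lower with 1 UMI. Of interferons and signalling genes, 0 were higher with 2500 genes, and 2 were higher and 1 lower with 1 UMI. Of interferon-stimulated genes, 3 were lower without high doublet scores or with equal weight, 5 were higher and 2 lower with 100 UMIs, and 19 and 14 with 1 UMI. Of MHC class I genes, 1 was higher with median of ratios, TMM, totals without abundant genes, 1000 or 2500 genes, thinning or 100 UMIs, and 1 was lower with 2500 genes or 1 UMI. Of other innate genes, 2 were lower with 100 UMIs and 5 higher with 1 UMI.

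No paired analysis was possible because each condition has 1 library. Depth limits the rare genes, and in most gates *Isg15*, *Ifih1* and *Ddx58* had too few UMIs to show a 1.5-fold difference.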

Other observations

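The follicle tip also held transcripts of the MHC class II genes *Cd74* and *H2-Ab1*, and the other follicle gates held some of them too. The tip cells had no *Ptprc* UMI, but cells with CD45 on their surface had been left out by the sort. *Cd74*, the invariant chain of class II, was at 39.7 CPM (32.8 to 47.6) in cKO and 55.9 CPM (47.3 to 65.5) in Ctrl tip cells, against 4.40 and 5.61 CPM in basal cells of the same libraries and 2.15 and 1.94 CPM in free RNA. *H2-Ab1*, a class II beta chain, had 38 UMIs (9.20 to 17.8 CPM) in cKO and 68 UMIs (19.4 to 31.7 CPM) in Ctrl tip cells. Its partner *H2-Aa* had 1 UMI in cKO and 0 in Ctrl over all kept cells, and *Ciita*, the class II transactivator, had 0 in either library. Other class II genes were rare in tip cells, with 1 UMI in cKO and 0 in Ctrl for *H2-Eb1*, 4 and 4 for *H2-DMa* and 3 and 4 for *H2-DMb1*. *Cxcr4*, a chemokine receptor, stood at 36.3 CPM (29.7 to 43.9) in cKO and 20.6 CPM (15.5 to 26.7) in Ctrl tip cells. It was at 17.7 and 10.9 CPM in follicle progenitors and upper follicle together, and at 4.85 and 2.57 CPM in basal cells. These genes were chosen after their values had been seen.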
